A study of Mus musculus with 8 samples.

Results

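A set of 5 miRNAs that are made mainly or largely by white blood cells were followed in injured and uninjured mouse kidney: miR-223-3p, both arms of miR-142a, miR-150-5p and miR-342-3p. They were taken by name, 5 of the 1881 mouse miRNAs on the array, and all 5 were detected on all 8 arrays, where detection is the flag set by the scanner software. The 4 IRI samples came from kidneys with ischemia-reperfusion injury, in which the right kidney was removed and the left was clamped and then released. The 4 sham samples came from mice with a midline incision only, so the groups differ by the nephrectomy as well as by the clamp. All mice were male C57BL/6 animals aged 9 weeks, with no transgene or other agent named beyond isoflurane anaesthesia. Clamping times of 25 and 45 min and collection after 12 and 24 h were both used, but no label ties a time to an IRI sample, so the IRI samples are 1 group of possibly mixed times. Nor do the labels state that samples are different animals, and p-values therefore measure the spread between these samples only, which may be technical.

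The members report on sets of blood cells that partly overlap. miR-223 is abundant in neutrophils, in other myeloid cells and in platelets, and in mice it restrains the growth of granulocyte precursors. miR-142 is made in nearly all blood cell lineages and both of its arms are used. miR-150 accumulates in mature B, T and NK lymphocytes, where its known target in mice is the transcription factor Myb, and miR-342 is also found in lymphocytes, though less strictly. In an ischemic kidney, neutrophils and monocytes are known to enter the tissue during the first hours to days. Whole tissue was measured, so fewer cells of a type and less RNA per cell cannot be told apart in any value below.

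The mature sequences are printed because the contrast rests on different RNAs read by separate probes. Of the 5 members, 4 matched a mature entry of the RefSeq table (build GRCm38.p6), and in these lines capitals mark the seed, bases 2 to 8 counted from the 5′ end.
miR-223-3p: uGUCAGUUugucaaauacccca
miR-142a-3p: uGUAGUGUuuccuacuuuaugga
miR-142a-5p: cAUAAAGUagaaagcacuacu
miR-342-3p: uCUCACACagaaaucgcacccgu
The 4 seeds differ from each other, and 0 other mature mouse entries of the 1679 in the table carry any of them. In GRCm38.p6, miR-223-3p lies at chrX:96242884-96242905, miR-142a-3p at chr11:87756903-87756925, miR-142a-5p at chr11:87756867-87756887 and miR-342-3p at chr12:108658680-108658702, all on the plus strand. In the same assembly the Mir342 gene lies inside the span of the protein-coding gene Evl, and the Mir223 gene overlaps the long noncoding RNA F630028O10Rik. Mir142 is overlapped on the opposite strand by Mir142b, whose mature product is the exact reverse complement of 20 bases of miR-142a-3p.
miR-142b: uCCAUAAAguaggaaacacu
Both probes for miR-142a-3p contain these 20 letters as DNA, so they capture miR-142a-3p and not miR-142b.

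Every member was read by a pair of probes of different length, with 13 to 15 spots of each used per array. The probes of miR-223-3p matched bases 3 to 22 and 2 to 22 of the miRNA, and those of miR-342-3p matched bases 8 to 23 and 7 to 23. The standard error of an array's value from its spots was 0.614% to 1.57% of the signal for miR-223-3p and 0.681% to 1.33% for miR-142a-3p. It reached 2.54% for miR-342-3p, 4.4% for miR-142a-5p and 5.29% for miR-150-5p, the dimmest of the 5. IRI arrays were brighter as a whole: the 75th percentile of signal over the 317 miRNAs detected on all 8 arrays was 445 to 562 on IRI arrays and 356 to 456 on sham arrays, with 393 to 447 miRNAs detected on IRI arrays and 327 to 379 on sham arrays. Each array was divided by this percentile, and the scaled signals below have arbitrary units. All arrays lay on 1 slide, with the groups in separate rows, so slide row and group cannot be told apart.

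mmu-miR-223-3p, the myeloid member, rose in IRI kidneys. Its scaled signal was 378, 448, 269.8 and 384 in IRI samples 1, 2, 3 and 18, against 123, 128, 117 and 137 in sham samples 1, 2, 3 and 6. Every IRI sample was above every sham sample, IRI sample 3 was the lowest of its group, and the sham samples lay close together, with the highest 1.17 times the lowest. The mean was 369.9 ± 74.0 in IRI and 127 ± 8.55 in sham (SD, n = 4 each), a 2.88-fold rise with a 95% interval from 2.27 to 3.66 (log2 change 1.53 ± 0.15, SE; adjusted p = 0.00049, limma). Its change ranked 9 among the 379 miRNAs fitted, the set that was detected throughout the IRI group, the sham group or both. Both probes of miR-223-3p moved this way, with log2 changes of 1.61 for the 21-base probe and 1.36 for the 20-base probe. Within the 4 slide columns, which each held 1 array of either group, the log2 difference of IRI minus sham was 1.20 to 1.80.

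**Figure D1:**
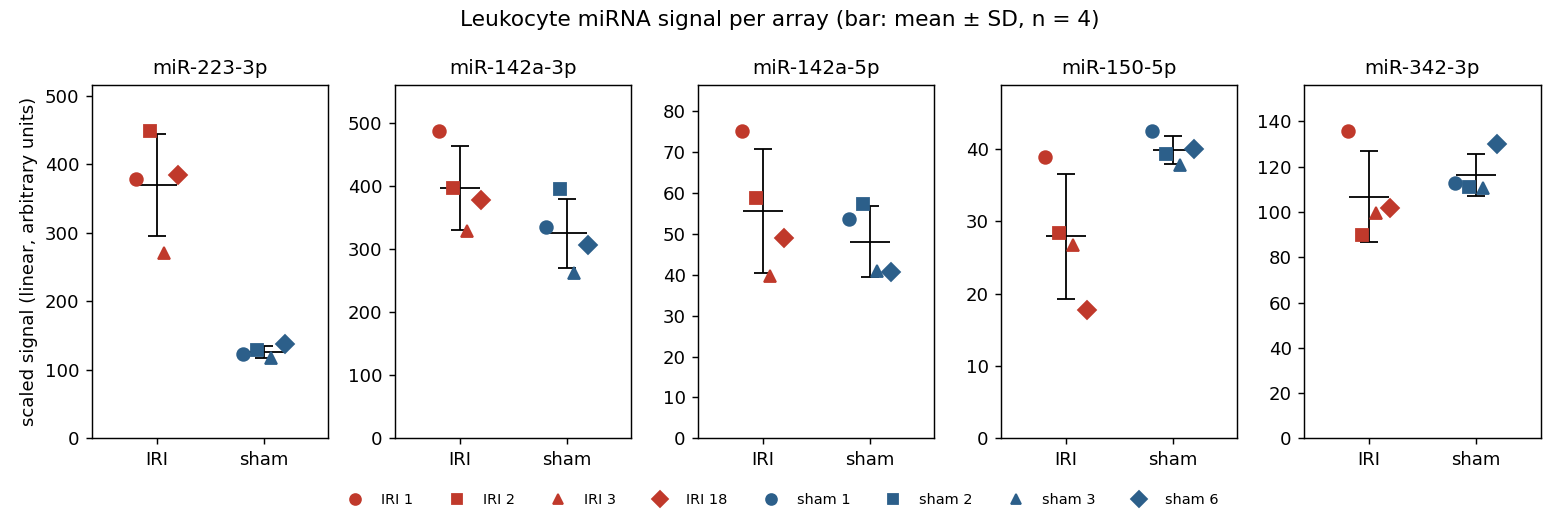
Scaled signal of each of the 5 miRNAs per array on linear axes that start at 0, with 1 symbol per sample and black bars for mean ± SD (n = 4 in each group). For miR-223-3p the IRI samples lie between 269.8 and 448 and the sham samples between 117 and 137, while the groups overlap for the other 4 miRNAs.

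Of the 5 members, miR-223-3p was called higher in IRI and 0 were called lower at an adjusted p below 0.05 (limma), where 12.1% of the 379 fitted miRNAs were called higher, 36.7% lower and 48.8% in either direction. The same member was the one without overlap between groups. Among all fitted miRNAs, 10.6% had every IRI sample above every sham sample, 35.9% had every IRI sample below, and 46.4% had either. A single call among 5 is not far from that background, so the count says little about the members as a set. The median log2 change over all 379 miRNAs was -0.11, and the change of miR-223-3p was 1.64 above it.

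miR-142a, the blood lineage miRNA, had no call on either arm. mmu-miR-142a-3p had scaled signals of 488, 397, 328 and 377 in IRI samples 1, 2, 3 and 18, against 335, 395, 263 and 308 in sham samples 1, 2, 3 and 6. IRI samples 1 and 2 stood above all sham samples, the second of them barely, and sham sample 2 was above IRI samples 3 and 18. Its mean was 398 ± 66.6 in IRI and 325 ± 55.4 in sham (SD, n = 4 each), and on the log2 scale IRI minus sham was 0.29 ± 0.16 (SE; 95% interval -0.07 to 0.65; limma adjusted p = 0.16). The opposite arm, mmu-miR-142a-5p, had 75.03, 58.6, 39.7 and 48.9 in IRI samples 1, 2, 3 and 18, against 53.6, 57.3, 40.8 and 40.6 in sham samples 1, 2, 3 and 6. The groups overlapped over most of their range, and IRI sample 3 was below all 4 sham samples. Its log2 change was 0.19 ± 0.21 (SE; 95% interval -0.30 to 0.68; adjusted p = 0.477, limma). Both intervals include no change, and their upper bounds were 1.57-fold for miR-142a-3p and 1.6-fold for miR-142a-5p.

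The lymphocyte members, miR-150-5p and miR-342-3p, had lower scaled means in IRI, and neither was called. Relative to the median change of all fitted miRNAs, the log2 change was -0.45 for miR-150-5p and -0.02 for miR-342-3p. The latter thus moved about as much as the median miRNA. A further lymphocyte marker that is no member, miR-155-5p, had a log2 change of 0.07 and no call. mmu-miR-150-5p had 38.9, 28.4, 26.8 and 17.8 in IRI samples 1, 2, 3 and 18, against 42.5, 39.3, 37.8 and 40.02 in sham samples 1, 2, 3 and 6. IRI samples 2, 3 and 18 were below every sham sample, and IRI sample 1 lay inside the sham range. The coefficient of variation was 30.9% in IRI and 4.9% in sham. Its log2 change was -0.57 ± 0.21 (SE; 95% interval -1.06 to -0.08; adjusted p = 0.0566, limma), which is 67.6% of the sham level. With 1 sample left out the log2 change was between -0.74 and -0.37. It was -0.74 without IRI sample 1, with an adjusted p of 0.0094 (limma), and -0.37 without IRI sample 18, with an adjusted p of 0.0657 (limma). miR-150-5p was also the dimmest member: IRI sample 18 lay just above the floor of 17.3 to which low signals were raised, and its 15-base probe had a spot well above background on 1 array of 8. The 16-base probe, with a spot above background on all 8 arrays, had a log2 change of -0.53 by itself.

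mmu-miR-342-3p had 136, 89.9, 99.6 and 102 in IRI samples 1, 2, 3 and 18, against 113, 111, 111 and 130.2 in sham samples 1, 2, 3 and 6. IRI sample 1 was the highest of all 8 and the other 3 IRI samples were below every sham sample. The log2 change was -0.14 ± 0.13 (SE; 95% interval -0.44 to 0.17; adjusted p = 0.408, limma). It was -0.26 without IRI sample 1, with an adjusted p of 0.0389 (limma), but -0.061 without IRI sample 2 and -0.082 without sham sample 6, with adjusted p of 0.718 and 0.647 (limma). IRI sample 1 was thus the highest IRI sample for miR-142a-3p, miR-142a-5p, miR-150-5p and miR-342-3p, but not for miR-223-3p, which was highest in IRI sample 2. This was not particular to these members. The same sample was the highest of its group for miR-451a, miR-30a-5p and miR-126a-3p, markers of other cell types, though not for miR-200b-3p.

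**Figure D2:**
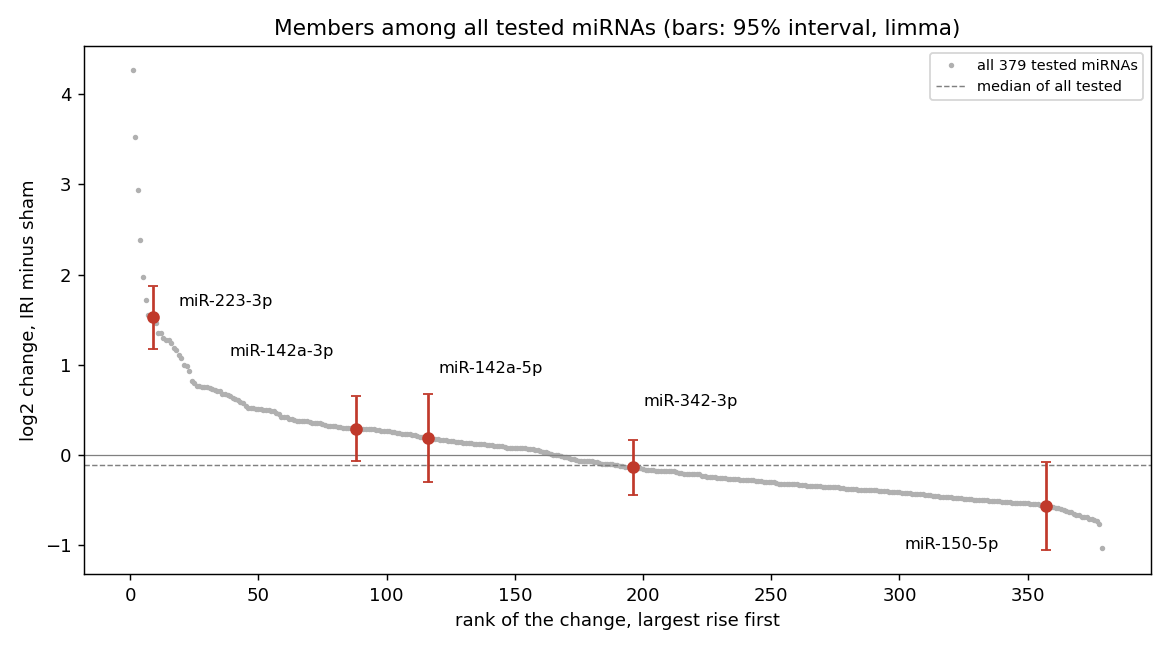
Log2 change (IRI minus sham) of all 379 fitted miRNAs against the rank of the change, with the 5 members in red and 95% intervals from limma as bars. miR-223-3p stands at rank 9 with 1.53, miR-142a-3p at 88, miR-142a-5p at 116, miR-342-3p at 196 and miR-150-5p at 357 with -0.57.

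The members were next set against each other inside each array, since 1 scaling factor per array cancels in such a difference. The log2 signal of one member minus that of another was taken per array, and its group means were compared for all 10 pairs with an exact permutation test. This exact test cannot go below p = 0.0286 with 4 against 4. Of the 10 pairs, 6 reached that value, each with an adjusted p of 0.0476 over the 10 pairs. The pairs share members, so these are not 6 separate tests. Of the 6, 4 hold the myeloid member, and the others set 1 lymphocyte member against both arms of 1 miRNA. The adjusted p rests on how many of these linked pairs tie at the smallest p. Levels of different probes are not compared, only the change of their difference.

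miR-223-3p rose relative to each of the other 4 members. Against miR-142a-3p the difference was -0.11 ± 0.26 in IRI and -1.35 ± 0.23 in sham (log2, SD, n = 4 each; exact permutation test, two-sided, p = 0.0286), a shift of 1.24 ± 0.17 (SE), or 2.35-fold. All 4 IRI arrays lay above all 4 sham arrays, with a gap of 0.79 between the nearest arrays. The shift was 1.34 ± 0.20 against miR-142a-5p, 1.66 ± 0.21 against miR-342-3p and 2.09 ± 0.28 against miR-150-5p (log2, SE), the last being 4.26-fold. For each of these pairs too, every IRI array was above every sham array, and the shift was positive in 4 of 4 slide columns. Against miR-342-3p the sham arrays were nearly level, at 0.12, 0.21, 0.09 and 0.08 in samples 1, 2, 3 and 6, while the IRI arrays stood at 1.48, 2.32, 1.44 and 1.91 in samples 1, 2, 3 and 18. These 4 pairs were at the smallest p in all 8 other settings with which the test was repeated, and with normexp background correction the shift against miR-142a-3p was 0.72. Not all 8 are separate checks. The floor divided by 2 left every shift unchanged, and the deposited table gave nearly the shifts of total gene signal. The adjusted p depends on how many of the 10 pairs sit at that smallest value, and was 0.0714 where 4 did.

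miR-142a moved between miR-223-3p and the lymphocyte miR-150-5p. miR-142a-3p minus miR-150-5p was 3.87 ± 0.37 in IRI and 3.01 ± 0.22 in sham (log2, SD, n = 4 each; exact permutation test, two-sided, p = 0.0286), a shift of 0.86 ± 0.22 (SE). For miR-142a-5p minus miR-150-5p the shift was 0.75 ± 0.22 (SE), and the nearest IRI and sham arrays were 0.03 apart, so the groups separated by a narrow margin. Both shifts rest partly on the dim miR-150-5p, and with the floor multiplied by 2 they were 0.46 and 0.35. They stayed at the smallest p in 4 of 8 other settings for miR-142a-3p and in 3 of 8 for miR-142a-5p. Both counts include the floor divided by 2, which left the shifts unchanged. With normexp background correction they were 0.48 and 0.19. Against miR-342-3p, the shift of miR-142a-3p was 0.43 ± 0.17 (SE; exact permutation p = 0.0571, n = 4 each), with 3 of 4 IRI arrays above all sham arrays. That of miR-142a-5p was 0.32 ± 0.22 (SE; exact permutation p = 0.171, n = 4 each), with overlap.

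The arms of miR-142a and the pair of lymphocyte miRNAs were compared in the same way. miR-142a-3p minus miR-142a-5p was 2.70, 2.76, 3.05 and 2.95 in IRI samples 1, 2, 3 and 18, against 2.64, 2.79, 2.69 and 2.92 in sham samples 1, 2, 3 and 6. The difference ranged from 2.64 to 3.05 over all arrays, and 2 of 4 IRI arrays lay above all sham arrays. The shift of 0.10 ± 0.10 (SE) did not pass the exact permutation test (p = 0.286, n = 4 each). With so few arrays this does not show that the ratio of the arms stayed the same. miR-150-5p minus miR-342-3p shifted by -0.43 ± 0.20 (SE; exact permutation p = 0.0571, n = 4 each), with 3 of 4 IRI arrays below all sham arrays and IRI sample 18 the farthest below.

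**Figure D3:**
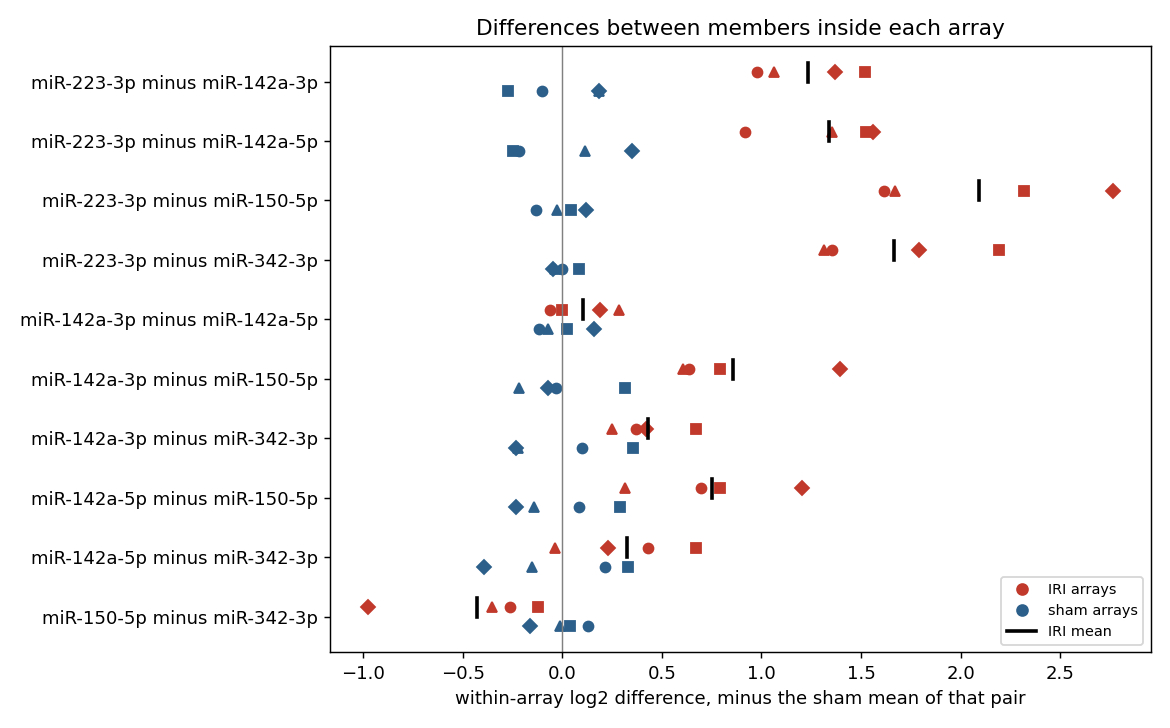
Log2 difference between members inside each array for the 10 pairs, drawn relative to the sham mean of each pair, with IRI arrays in red above sham arrays in blue and a black line at the IRI mean. In the top 4 pairs, which hold miR-223-3p, the IRI means lie at 1.24, 1.34, 2.09 and 1.66 and no IRI array meets a sham array.

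Profiles across the 8 arrays were compared with those of the other 316 miRNAs detected on all of them, as a description. Likeness was the root mean square difference between log2 profiles, each centred on its own mean, and all profiles share the same 8 arrays and their group difference. The nearest profile to miR-142a-3p was that of its own opposite arm, at 0.13, followed by miR-17-3p at 0.19 and miR-9-5p at 0.20. The nearest to miR-142a-5p were miR-142a-3p at 0.13, miR-9-5p at 0.18 and miR-139-3p at 0.22. The nearest to miR-223-3p were miR-466i-5p at 0.27, miR-574-5p at 0.27 and miR-7036a-5p at 0.28, whose log2 changes were 1.27, 1.36 and 1.55. Its fellow members ranked far behind, miR-142a-3p at place 44 and miR-150-5p at place 301. miR-150-5p lay nearest to miR-326-3p at 0.14, to miR-145a-5p, which is typical of smooth muscle and mural cells, at 0.15, and to miR-181b-5p at 0.17. The nearest to miR-342-3p were miR-702-3p at 0.10, miR-15b-5p at 0.11 and miR-7226-5p at 0.11, all with changes between -0.13 and -0.10.

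The other strands made from the same loci were not seen. miR-223-5p, miR-142b, miR-150-3p and miR-342-5p were detected on 0 of 8 arrays. Of a list of 16 other miRNAs known from white blood cells, 7 could be fitted, 8 had no array with a detection, and miR-146b-5p had a detection on 1 IRI array. Among the 7, 0 were higher, 1 was lower and 6 had no call, where 12.1% of all fitted miRNAs were higher and 36.7% lower. Their median log2 change was -0.19, beside -0.11 over all miRNAs fitted. The one called was miR-181b-5p, known from developing T and B cells, with 66.1 ± 10.04 in IRI and 98.5 ± 4.43 in sham (SD, n = 4 each), a fall by 0.59 ± 0.12 on the log2 scale (SE; adjusted p = 0.0047, limma). Without IRI sample 1 the list had 3 lower, and without scaling or with the spike-ins it had 0. The brightest of the list, miR-181a-5p, differed by -0.27 ± 0.10 on the log2 scale (SE; limma adjusted p = 0.0556). miR-146a-5p, which is induced by NF-kB in macrophages and lymphocytes, had -0.53 ± 0.25 (SE; adjusted p = 0.117, limma). miR-155-5p, induced in activated lymphocytes and macrophages, had 55.5 ± 7.15 in IRI and 52.7 ± 3.38 in sham (SD, n = 4 each), a log2 difference of 0.07 ± 0.10 (SE; limma adjusted p = 0.573).

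Red blood cell and kidney cell miRNAs also moved between the groups, and their part in the changes above was not tested. Of 5 listed red blood cell miRNAs, 4 were on the array, 3 were fitted and 3 were higher, where 12.1% of all fitted miRNAs were higher. Of these, miR-144-3p and miR-486a-5p entered the fit only through their detection in IRI, with a detection on 2 and 0 sham arrays. Among miRNAs detected on all 8 arrays, 1 of the list was fitted and 1 was higher. The summed scaled signal of the 3 was 2940 to 4087 in IRI and 41.1 to 902 in sham. miR-451a, the main red blood cell miRNA, had 3773, 3061, 2706 and 2879 in IRI samples 1, 2, 3 and 18, against 42.7, 617, 835 and 232 in sham samples 1, 2, 3 and 6. Over the sham samples its highest signal was 19.5 times its lowest, while that of miR-223-3p was 1.17 times its lowest. Sham sample 3, with the most miR-451a of its group, had the least miR-223-3p. In the IRI group, however, sample 3 had the least of both, at 2706 and 269.8. Whether the 2 miRNAs vary together was not tested.

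**Figure D4:**
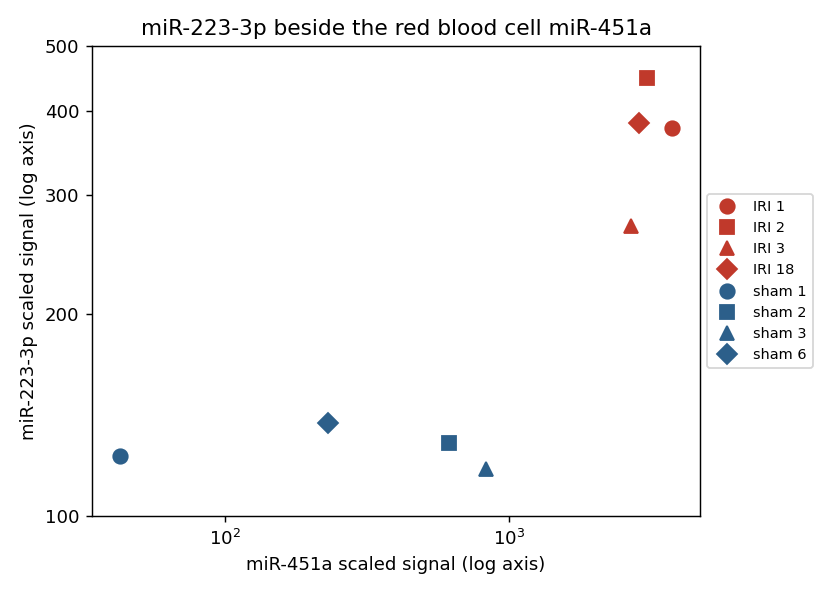
Scaled signal of miR-223-3p against that of the red blood cell miR-451a, 1 point per sample, with both axes logarithmic. The IRI samples lie at 2706 to 3773 in miR-451a and 269.8 to 448 in miR-223-3p, above the sham samples on both axes, which span 42.7 to 835 in miR-451a at 117 to 137 in miR-223-3p.

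The resident cell lists moved the other way relative to the array. Of 9 kidney tubule miRNAs 9 were lower, with a summed signal of 16191 to 18305 in IRI and 22358 to 25528 in sham and a median log2 change of -0.47, where 36.7% of all fitted miRNAs were lower. Without scaling, and likewise with the spike-ins, 1 of the 9 was lower, where 1 and 2 of the 379 fitted miRNAs were lower. The median log2 change of the 9 was then -0.17 and -0.15, beside 0.17 and 0.18 over all fitted miRNAs. miR-30a-5p, abundant in tubule epithelium, had a log2 change of -0.42. Both endothelial miR-126a arms were lower, with a summed signal of 3836 to 4321 in IRI and 4623 to 5333 in sham. Of 5 fibroblast and mural miRNAs 2 were lower, a count not far from the 36.7% of all fitted miRNAs. Their summed signal was 1152 to 1781 in IRI and 1885 to 2085 in sham. Without scaling and with the spike-ins, 0 of these endothelial, fibroblast and mural miRNAs were lower, in fits with 1 and 2 lower calls in all. Among the red blood cell markers, miR-486a-5p was detected on 4 IRI arrays and 0 sham arrays, and miR-144-5p on 1 IRI array and 0 sham arrays. Every listed tubule, endothelial, fibroblast and mural miRNA was detected on all 8 arrays.

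Another factor per array adds about the same amount to the log2 change of every miRNA above the floor, so it moves the 5 members together. Without scaling the log2 changes were 1.83 for miR-223-3p, 0.59 for miR-142a-3p, 0.49 for miR-142a-5p, 0.17 for miR-342-3p and -0.25 for miR-150-5p, and the median over all miRNAs was 0.17. With scaling to the labelling spike-ins, RNAs added to each sample before labelling, they were 1.85, 0.61, 0.51, 0.18 and -0.22 in the same order. miR-223-3p was called higher in each of these fits, with the other 4 not called, and 53 miRNAs in all were higher without scaling against 1 lower. With the main scaling 46 were higher and 139 lower.

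**Figure D5:**
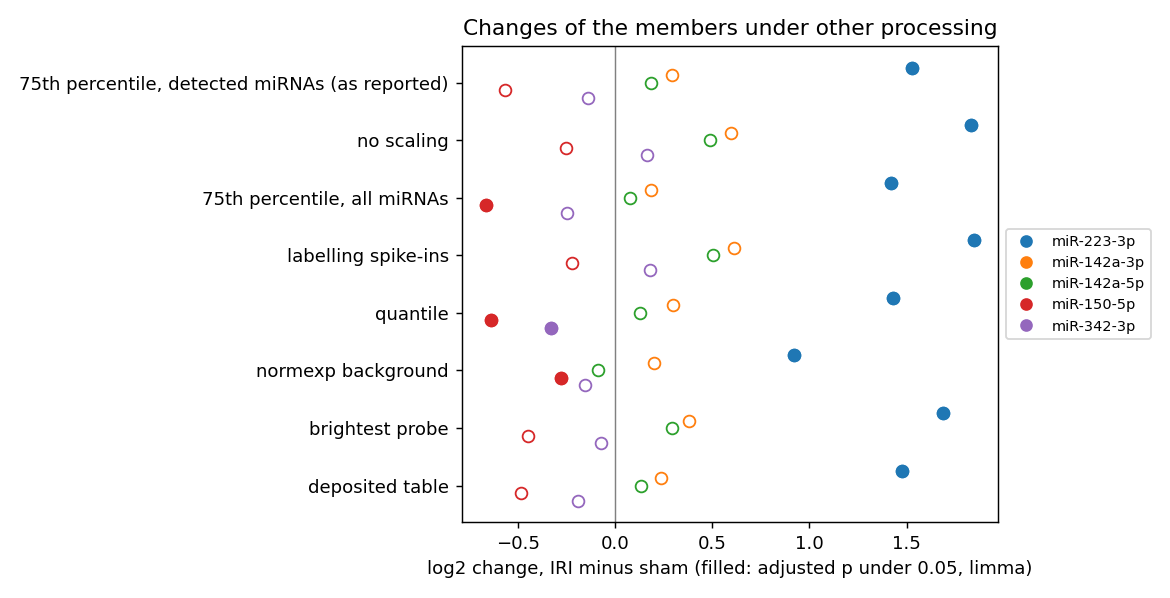
Log2 change (IRI minus sham) of the 5 members under 8 ways of processing, with filled symbols for an adjusted p below 0.05 (limma). miR-223-3p is filled throughout, from 0.92 with normexp background correction to 1.85 with the spike-ins, and miR-342-3p lies on both sides of 0.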

How the data were processed

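Total RNA from 30 mg of kidney was labelled with Cy3 (100 ng) and hybridised to single-colour Agilent mouse miRNA arrays, per the labels' protocols. Per the file headers, the authors extracted linear spot intensity with Agilent software (Feature Extraction, release 12.0.3.1) with spatial detrending switched on. A deposited table gives each miRNA as a linear ratio, and its making is not stated in the sources used here. Compared with the scanner signals, its columns followed total gene signal times 1 factor per array after a centring per entry, higher meaning more signal, with the scaling rule and exact centring unknown. Its column medians were 0.658, 0.646, 1.16 and 0.749 for IRI samples 1, 2, 3 and 18 and 0.859, 1.23, 1.29 and 1.3 for sham samples 1, 2, 3 and 6. It served as an alternative.

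Outlier spots (1422 to 1560 of 56430 per array) were left out and 0 spots were saturated. Processed signals were averaged per probe, summed per miRNA, divided by each array's 75th percentile (taken over 317 miRNAs with a detection on every array), floored at the 5th percentile of detected signals (17.3) and taken to log2. In R 4.3.3, limma 3.58.1 was run on the 379 miRNAs detected on every array of IRI, sham or both (lmFit, eBayes, two-sided, Benjamini-Hochberg, threshold 0.05), with groups from the sample titles and no covariate. On simulated data for this comparison with 379 miRNAs it recovered 10 of 20 changes of 1.5-fold, 18 of 20 of 2-fold and 20 of 20 of 4-fold, with 0 calls among 319 unchanged. The 10 member pairs were tested with scipy 1.17.1. Only 4 arrays per group limit the precision. Members, lists and tests were chosen with earlier results of these data known. The text names the 5 members, the other strands of their loci, called members of the other leukocyte list and up to 3 of the brightest of each list, and the 3 nearest profiles of each member. miR-146b-5p and miR-144-5p, named for their detection, were chosen after their values were seen. Sequences and neighbouring genes are from RefSeq tables (GRCm38.p6). Alternatives covered scaling, background, value per miRNA, filter, floor, variance model, blocks and left-out samples.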

Additional observations from a re-analysis of the deposited data

Results flagged for a closer look

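Among the 30 sets of 4 arrays examined (each member and each within-array pair, in each group), 1 held an array far from the rest. In sham samples the log2 signal of miR-342-3p was higher in sample 6 than in the other 3, with a gap of 0.87 of the whole range, above Dixon's 95% critical value for 4 samples. Its scaled signals were 113, 111, 111 and 130.2 in sham samples 1, 2, 3 and 6. Chance flags about 1 in 20 such sets.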

How the results depend on the processing

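The rise of miR-223-3p was called in all 24 other settings, with log2 changes from 0.92 to 1.85 and 1.43 to 1.67 with 1 sample left out. Not all 24 are separate checks. The other filters, floors and variance model and the slide column block left its log2 change at 1.53 and altered only the p-value. miR-142a-3p was called in none of the 24. With 1 sample left out, the log2 change was -0.74 to -0.37 for miR-150-5p and -0.26 to -0.061 for miR-342-3p. miR-142a-5p turned to -0.089 with normexp background correction, and miR-342-3p to 0.17 without scaling and 0.18 with the spike-ins. Members called lower numbered 1 with the percentile over all miRNAs (miR-150-5p, log2 change -0.66), with normexp (-0.28), with miRNAs detected on all 8 arrays (-0.57) and with the floor multiplied by 2 (-0.17), and 2 with quantile normalization (miR-150-5p at -0.64 and miR-342-3p at -0.33). Of all 379 fitted miRNAs, 144 were lower with that percentile, 159 with normexp, 125 with the floor multiplied by 2 and 128 with quantile normalization. Among the 317 detected on all 8 arrays, 139 were lower. A count of 1 or 2 among 5 is not far from these shares, so it says little about the members as a set. With 1 sample left out, 0 to 2 members were called lower. The 2 were without IRI sample 1, where 145 of the 379 were lower. Of the other leukocyte miRNAs, 0 were called lower with unscaled arrays and with spike-in scaling. Those called lower numbered 4 with normexp, 2 with a trended robust variance, and 1 to 3 with 1 sample left out. In the same order, 1, 2, 159, 135 and 114 to 145 of the 379 fitted miRNAs were lower. In every setting 0 of the other leukocyte miRNAs were called higher.

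Over all miRNAs, leaving arrays unscaled gave 53 calls higher and 1 lower, spike-in scaling 73 and 2, normexp 18 and 159, and testing all 1881 miRNAs 21 and 90; with 1 sample left out, 36 to 62 were higher and 114 to 145 lower. Groups share replicate numbers 1, 2 and 3, and the deviations of same-numbered samples correlated at -0.16, -0.20 and 0.24 over the fitted miRNAs. Those of differently numbered samples correlated at -0.35 to 0.50, so these values cannot tell whether the numbers pair the samples. With the replicate block over these 6 arrays, 17 were higher and 50 lower; this fit both dropped 2 arrays and added the block, and which of these lowered the counts was not tested.

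Adjusted over the 10 pairs, the 6 called pairs lost their call in 5 settings in which fewer pairs sat at the smallest p. In the order miR-223-3p against miR-142a-3p, miR-142a-5p, miR-150-5p and miR-342-3p, then miR-142a-3p and miR-142a-5p against miR-150-5p, the shifts were 0.72, 1.01, 1.20, 1.07, 0.48 and 0.19 with normexp, and 1.31, 1.39, 2.13, 1.76, 0.83 and 0.74 with the brightest probe. They were 1.24, 1.34, 1.96, 1.66, 0.72 and 0.62 with total gene signal and the deposited table. With the floor multiplied by 2 they were 1.24, 1.34, 1.69, 1.66, 0.46 and 0.35. miR-142a-3p against miR-342-3p gained a call with quantile normalization (0.63). With a sample left out, the smallest p is 0.0571, so only the shift was taken. None of the 10 pairs turned sign in any setting.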
